A study of Mus musculus with 6 samples.

Results

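Complex I, the NADH:ubiquinone oxidoreductase of the mitochondrial inner membrane, is described here through its nuclear genes in crypt epithelium of the mouse small intestine. The genes were taken by name: every protein-coding gene of the count table whose symbol begins with Nduf, pseudogenes left out. This gave 46 of 28564 genes in the table. After the filter on low counts 45 of them were tested, among 15122 tested genes. By role they are 7 core subunits, 29 accessory subunits, 8 assembly factors and 2 genes that carry the name but do not encode standard complex I subunits (Ndufa4 and Ndufa4l2). The rule itself uses the symbol and no measured value.

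RNA was sequenced in bulk from sorted crypt cells of male mice aged 13 weeks. The 3 wild-type samples were from C57Bl/6 mice, and the 3 knockout samples were from Apln-/- mice, which lack the secreted peptide apelin. The sort kept live single cells positive for EpCAM, an epithelial surface protein, and for CD44, a crypt marker, and removed cells bearing CD31 (endothelium) or CD45 (blood-derived). The labels call the samples biological replicates, do not mention pooling, and give neither the strain background of the knockout nor the deleted part of the gene. The loss of Apln was not limited to the epithelium by any driver named in the labels. The p-values below weigh the difference between the groups against the variation between these samples.

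Complex I takes electrons from NADH, passes them through a flavin and a chain of iron-sulfur clusters to ubiquinone, and pumps protons across the inner membrane. Its L shape has a matrix arm that carries the electron path and a membrane arm that carries the pumps, and the central membrane subunits are encoded by the mitochondrial DNA as mt-Nd genes. Accessory subunits surround this core, and assembly factors join separately built modules and then leave. In the intestinal crypt, stem cells are known for active mitochondrial respiration and neighbouring Paneth cells for a more glycolytic metabolism.

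Library totals were 23046880 to 26513481 counts. Leaving aside the 5 most abundant entries, both mitochondrial ribosomal RNAs among them, wild type kept 6037237 to 7616648 counts and knockout 5144725 to 5623112. The Apln gene itself was counted 29, 7 and 5 times in wild type (libraries 1, 2 and 3) and 0 times in every knockout library. Markers of epithelium summed to 1407 to 1768 CPM (counts scaled to library depth with TMM, edgeR's trimmed mean of M-values) in wild type and 1612 to 1986 CPM in knockout. The 4 endothelial markers in the table stayed between 0.0461 and 1.67 CPM summed, and the 4 blood-derived ones between 5.05 and 9.68 CPM. On the TMM scale, summed markers of 3 crypt cell types did not overlap between the groups. The 5 Paneth genes summed to 603 to 939 CPM in wild type and 949 to 2357 CPM in knockout, so the groups nearly met. The 5 enteroendocrine genes summed to 700 to 960 and 416 to 561 CPM, and the 5 tuft genes to 65.9 to 87.4 and 22.4 to 50.7 CPM. Taken singly, 1 of 5 Paneth genes lay higher in knockout without overlap, against 11.3% of all genes. Lower without overlap were 2 of 5 enteroendocrine and 4 of 4 tested tuft genes, against 1446 of 15122 genes. Whether the sums overlap on other scales was not examined. In bulk RNA, fewer cells of a type and less RNA per cell cannot be told apart.

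Promoter letters are shown first because nuclear respiratory genes are known to share short promoter motifs. A link between these motifs and the fold changes was not tested. RefSeq promoter windows (GRCm38.p6, 250 bases before to 50 bases after the start) matched 40 of the 45 tested genes. Of the motifs searched on both strands, the YY1 core ATGGCGGC was in 7 of the 40 (17.5%), against 5.57% of the 10116 tested genes with a window and 2.605% of all 27025 genes with one. The 7 stretches below are written 5′ to 3′ on the strand of the gene, with the core in capitals.
Ndufa7, chr17:33824464-33824491, plus strand: cgtgtccatgATGGCGGCgatctggcgg
Ndufa9, chr6:126849095-126849122, minus strand: gtgggagaagATGGCGGCcgccgtccgc
Ndufaf8, chr11:120098937-120098964, plus strand: agggcccaagATGGCGGCgccctcgaga
Ndufb5, chr3:32737072-32737099, plus strand: cggtgtagccATGGCGGCcatgagcctg
Ndufs4, chr13:114388045-114388066, minus strand: ctacaggaagATGGCGGCggtc
Ndufs6, chr13:73328433-73328456, minus strand: caccggcaagATGGCGGCggtgct
Ndufs7, chr10:80249466-80249493, plus strand: cgaggccaagATGGCGGCgctggcgggt

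In 5 of these 7 genes, all but Ndufa7 and Ndufaf8, the first 3 letters of the core are the annotated start codon, so the match lies at the beginning of the coding sequence. The 7 genes included Ndufa9, which had the lowest p of all Nduf genes, and also Ndufs4 and Ndufs7, whose fold changes lay below 0. The NRF1 core GCATGCGC, the core of the motif of nuclear respiratory factor 1, was in 5 of the 40 windows (12.5%), against 5.84% of tested genes and 3.05% of all genes. One stretch per gene is shown on the strand of the gene, again with the core in capitals. The core overlaps its own reverse complement in Ndufa11, Ndufaf4 and Ndufaf5.
Ndufa11, chr17:56717694-56717721, plus strand: tgcactgcgcGCATGCGCgcacgccttg
Ndufa6, chr15:82354357-82354384, minus strand: ccgcggtagaGCATGCGCattgcagagc
Ndufa8, chr2:36049329-36049356, minus strand: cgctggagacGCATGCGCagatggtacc
Ndufaf4, chr4:24897962-24897989, plus strand: agatgtctgcGCATGCGCctgtgcggaa
Ndufaf5, chr2:140170654-140170681, plus strand: tcccgttggcGCATGCGCctaatagaaa

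The other motifs were the ETS motif CCGGAAGT in 1 window (2.5%, against 9.16% of tested genes), the cyclic AMP response element TGACGTCA in 3 (7.5% against 3.49%), the GC box GGGCGG in 21 (52.5% against 66.8%) and the TATA letters TATAAA in 4 of 40, against 9.22% of tested genes. These matches describe the letters only, and the shares were not tested. Yy1 itself was at 24.5 ± 5.19 CPM in wild type and 22.7 ± 0.678 in knockout, and Nrf1 at 7.96 ± 1.503 and 8.79 ± 1.27 (SD, n = 3 each), and the groups overlapped for both.

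Nduf transcripts were mostly more abundant in Apln knockout crypt cells, with medians between 0.46 and 0.71 on the log2 scale in each role, but no single gene passed the test over all genes. The median log2 fold change of the 45 tested genes was 0.54 (quartiles 0.44 and 0.71, range -0.21 to 1.12), against -0.01 over all genes. A value above 0 was seen in 41 of 45, where the share over all genes was 49.5%. At an adjusted p under 0.05 by edgeR (quasi-likelihood, Benjamini-Hochberg) 0 of 45 were called, where 0.112% of all genes were called higher, and the lowest adjusted p was 0.0575 for Ndufa9. At an unadjusted p under 0.05 the same edgeR test had 26 of 45 higher and 0 lower, against 7.53% and 7.66% of all genes. In 26 of 45 all 3 knockout libraries lay above all 3 wild-type libraries, as they did in 11.3% of all genes, and in 0 of 45 they lay below.

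**Figure D1:**
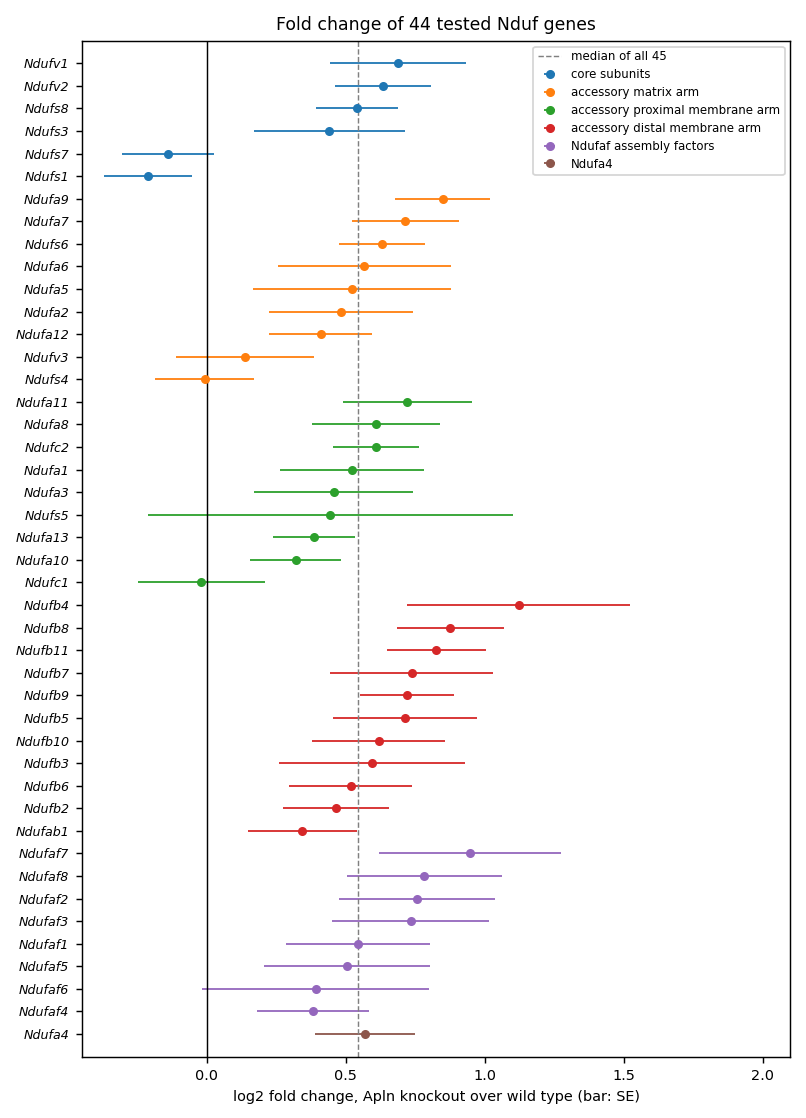
Log2 fold change of knockout over wild type for 44 of the 45 tested Nduf genes, grouped by role, with bars for the standard error and a dashed line at the median of all 45 (0.54). Most points lie right of 0, and the 4 left of it are Ndufs1, Ndufs7, Ndufc1 and Ndufs4.

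The number of Nduf genes past the adjusted threshold depended on the test. It was 0 with limma-voom, with DESeq2's size factors or upper-quartile scaling in edgeR, with total-count scaling, with the length and GC correction and without the 5 most abundant entries. The DESeq2 Wald test called 10 of them, all higher, among them Ndufa7, Ndufa9, Ndufb8, Ndufb9, Ndufb11, Ndufc2, Ndufs6, Ndufs8 and Ndufv2, where it called 2.57% of genes higher. The edgeR test without wild-type library 3 called 8 (Ndufa7, Ndufa9, Ndufa11, Ndufb5, Ndufb8, Ndufb9, Ndufb11 and Ndufv1), where 1.61% of genes were called higher. Leaving out any other library gave 0 called Nduf genes. These genes are listed by their call under those settings, not by the rule for named genes.

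Summed over all 46 genes, Nduf transcripts stood at 605, 566 and 759 CPM in wild-type libraries 1 to 3 and at 916, 975 and 843 CPM in knockout libraries 1 to 3. Every knockout library was above every wild-type one, and the means were 643 ± 102 and 911 ± 66.1 CPM (SD, n = 3), a ratio of 1.42. This ratio depended on what the counts were set against. On a CPM scale of all counts, ribosomal RNA included, the sum was 625, 675 and 907 in wild type and 769, 852 and 774 in knockout. There wild-type library 3 was the highest of the 6 and the groups overlapped. The means were 736 ± 151 and 798 ± 46.5 (SD, n = 3), a ratio of 1.08. On a CPM scale without the 5 most abundant entries it was 2526, 2301 and 3158 in wild type and 3642, 3756 and 3466 in knockout, with no overlap and a ratio of 1.36. With total counts as the scale, a setting chosen after the data were seen, the median over all genes moved to -0.38 and that of the Nduf genes to 0.17. A change of scale moves every gene by about the same amount, so the distance between these medians is set by construction. With total counts 37 of 45 lay above 0, where 21.3% of all genes did, and at an unadjusted p under 0.05 in the edgeR test 2 of 45 were higher (Ndufa9 and Ndufb11) and 2 were lower (Ndufs1 and Ndufs7), where 1.2% and 27.0% of all genes were. These 4 are named for passing that setting.

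The 7 core subunits, which carry the flavin, the iron-sulfur clusters and the ubiquinone site, split into 5 genes with values above 0 and 2 below. Their median log2 fold change was 0.52. At an unadjusted p under 0.05 by edgeR 4 of 7 were higher, against 7.53% of all genes. In 3 of 7 the knockout libraries all lay above wild type, against 11.3% of all genes. Ndufv2, a cluster-bearing subunit beside the flavin (chr17:66078638-66101559, minus strand, mm10), was at 15.6, 15.9 and 18.01 CPM in wild type and 23.7, 30.5 and 22.7 in knockout. Ndufs8, which holds a pair of clusters near the membrane (chr19:3908863-3912774, minus strand), was at 25.8, 28.5 and 27.8 CPM against 40.6, 43.3 and 35.8. For both genes every knockout library was higher than every wild-type library. Their log2 fold changes were 0.63 ± 0.17 and 0.54 ± 0.15 (SE), with adjusted p-values of 0.122 and 0.123 by edgeR (quasi-likelihood, Benjamini-Hochberg). The flavin-bearing Ndufv1 was at 19.9 ± 7.42 CPM in wild type and 32.2 ± 6.94 in knockout (SD, n = 3), with wild-type library 3 at 28.4 CPM above knockout library 2 at 26.4.

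The 2 core genes below 0 were Ndufs1 and Ndufs7. Ndufs1 encodes the largest subunit of the matrix arm and holds several of its clusters (chr1:63143596-63176833, minus strand). It was at 27.3, 32.1 and 36.3 CPM in wild type and 28.9, 28.5 and 25.3 CPM in knockout. The groups overlapped, and the log2 fold change was -0.21 ± 0.16 (SE; adjusted p = 0.573, edgeR quasi-likelihood, Benjamini-Hochberg). Ndufs7, which carries the last cluster before ubiquinone (chr10:80249121-80256794, plus strand), was at 24.7, 28 and 27.1 CPM in wild type and 20.4, 28.3 and 23.8 in knockout. The log2 fold change was -0.14 ± 0.16 (SE; edgeR adjusted p = 0.741), and knockout library 2 was the highest of the 6. The ratio of Ndufa9 to Ndufs1 CPM, a pair chosen after its values were seen, was 0.679, 0.669 and 0.764 in wild type and 1.47, 1.43 and 1.54 in knockout. A ratio within a library shows unequal change and does not say which of the pair differed.

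**Figure D2:**
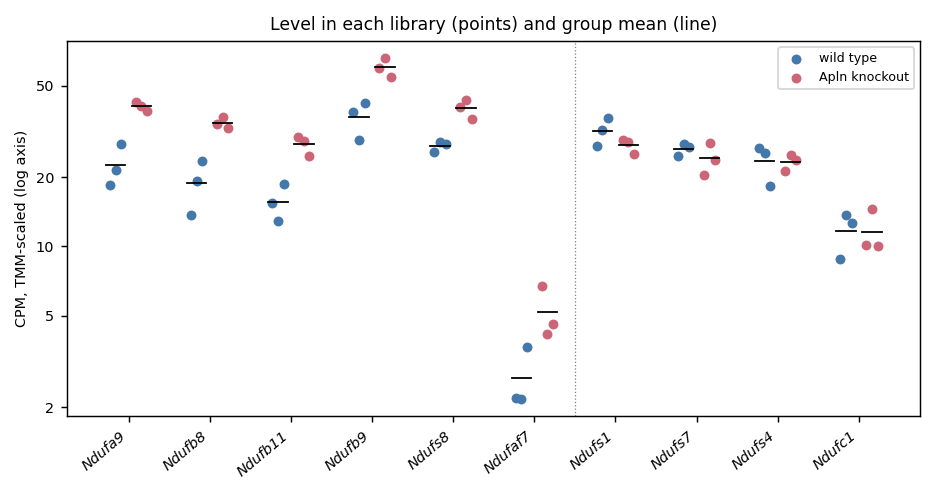
CPM in each library (points, log axis) and group mean (line) for 6 Nduf genes with values above 0, left of the dotted line, and for the 4 with values below 0, right of it. For Ndufa9, Ndufb8, Ndufb11, Ndufb9, Ndufs8 and Ndufaf7 the 3 knockout points lie above the 3 wild-type points, and for Ndufs1, Ndufs7, Ndufs4 and Ndufc1 the groups overlap.

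Accessory subunits of the matrix arm had a median of 0.52 over 9 genes, with 8 above 0. By edgeR 4 of 9 were higher at an unadjusted p under 0.05, against 7.53% of all genes. In 4 of 9 the knockout libraries all lay above wild type, against 11.3% of all genes. Ndufa9, which sits where the arms meet and binds a nicotinamide nucleotide (chr6:126821721-126849136, minus strand), was at 18.6, 21.5 and 27.8 CPM in wild type and 42.5, 40.7 and 39.0 CPM in knockout. The lowest knockout library was thus well above the highest wild-type one. The log2 fold change was 0.85 ± 0.17 (SE), or 1.80-fold, with an unadjusted p of 0.000291 and an adjusted p of 0.0575 by edgeR (quasi-likelihood, Benjamini-Hochberg). Ndufs6, a zinc-binding subunit added late in the assembly of the matrix arm (chr13:73319838-73328542, minus strand), was at 17.3, 15.6 and 18.8 CPM in wild type and 26.9, 26.8 and 26.2 in knockout, close to equal within each group. Its log2 fold change was 0.63 ± 0.15 (SE; edgeR adjusted p = 0.0982). Ndufa7 (chr17:33824572-33838317, plus strand) was at 8.57, 9.44 and 11.9 CPM against 15.2, 15.9 and 18.1, a log2 fold change of 0.71 ± 0.19 (edgeR adjusted p = 0.119).

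Ndufs4, an accessory subunit whose loss in mice is a standard model of complex I deficiency (chr13:114287795-114388258, minus strand), was the one accessory matrix arm gene below 0. It was at 26.8, 25.4 and 18.4 CPM in wild type and 21.4, 25.01 and 23.8 CPM in knockout, so the groups overlapped. The log2 fold change was -0.01 ± 0.18 (SE; edgeR quasi-likelihood, Benjamini-Hochberg, adjusted p = 0.989), and its sign turned to above 0 under several other settings, upper-quartile scaling among them. Ndufv3, a small subunit beside the flavin module, was at 13.6 ± 4.68 and 14.98 ± 1.76 CPM (SD, n = 3), with wild-type library 2 at 8.44 and all others at 13.1 or more.

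The membrane arm is built from a proximal part near the matrix arm and a distal part. The 9 proximal accessory genes had a median of 0.46, with 8 above 0. By edgeR 4 of 9 were higher at an unadjusted p under 0.05, against 7.53% of all genes. In 5 of 9 the knockout libraries all lay above wild type, against 11.3% of all genes. Ndufc2 (chr7:97400003-97407802, plus strand) was at 17.3, 16.8 and 18.5 CPM in wild type and 27.9, 27.7 and 24.7 in knockout. Ndufa11, an integral membrane subunit (chr17:56717767-56722141, plus strand), was at 10.2, 7.16 and 13.7 CPM against 17.3, 18.8 and 15.2. Ndufa8, a subunit of the intermembrane space side (chr2:36036326-36049406, minus strand), was at 6.47, 5.34 and 8.23 CPM against 10.3, 11.6 and 8.69. For these 3 genes the groups did not overlap, although for Ndufa8 the closest pair, wild-type library 3 and knockout library 3, were near each other. Log2 fold changes were 0.61 ± 0.15, 0.72 ± 0.23 and 0.61 ± 0.23 (SE), with adjusted p-values of 0.101, 0.175 and 0.240 by edgeR (quasi-likelihood, Benjamini-Hochberg). Ndufc1, a small membrane subunit that in assembly belongs with Ndufc2 (chr3:51404677-51408988, minus strand), was at 8.85, 13.6 and 12.6 CPM in wild type and 10.1, 14.5 and 10.02 CPM in knockout. Its log2 fold change was -0.02 ± 0.23 (SE; edgeR adjusted p = 0.979), with the highest and the lowest of the 6 libraries in different groups.

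The 11 distal accessory genes, all but one of them named Ndufb, had the highest median of the subunit groups, 0.71. All 11 lay above 0, and 9 were higher at an unadjusted p under 0.05 by edgeR, against 7.53% of all genes. In 7 of 11 the knockout libraries all lay above wild type, against 11.3% of all genes. Whether the distal genes differed from the other subunits was not tested. Ndufb11, encoded on the X chromosome (chrX:20615326-20617619, minus strand), was at 15.5, 12.9 and 18.6 CPM in wild type and 29.8, 28.7 and 24.8 CPM in knockout. Ndufb8 (chr19:44548572-44555440, minus strand) was at 13.6, 19.3 and 23.5 CPM in wild type and 34.1, 36.7 and 32.8 in knockout. Ndufb9, a subunit with a LYR motif that contacts the acyl carrier protein (chr15:58933756-58939488, plus strand), was at 38.3, 29.0 and 42.2 CPM against 59.7, 66.1 and 54.6. None of these genes overlapped between the groups. Their log2 fold changes were 0.83 ± 0.18, 0.88 ± 0.19 and 0.72 ± 0.17 (SE), that is 1.77-fold, 1.83-fold and 1.65-fold, with adjusted p-values of 0.0705, 0.0729 and 0.0911 by edgeR (quasi-likelihood, Benjamini-Hochberg). The fold of the lowly counted Ndufb4 was the largest of all at a log2 value of 1.12 ± 0.40, from 1.39 ± 0.366 to 3.02 ± 0.836 CPM (SD, n = 3). The smallest of the group was that of Ndufab1, the mitochondrial acyl carrier protein, at 0.34.

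The 8 Ndufaf assembly factors, which are not part of the finished enzyme, had a median of 0.64. All 8 lay above 0, and 4 were higher at an unadjusted p under 0.05 by edgeR, against 7.53% of all genes. In 6 of 8 the knockout libraries all lay above wild type, against 11.3% of all genes. Ndufaf7, a methyltransferase needed for complex I assembly (chr17:78937136-78948052, plus strand), was at 2.18, 2.17 and 3.66 CPM in wild type and 6.75, 4.15 and 4.58 CPM in knockout. Ndufaf8, a partner of the assembly factor Ndufaf5 (chr11:120098928-120100705, plus strand), was at 3.37, 2.51 and 4.45 CPM against 5.49, 6.23 and 6.10. Ndufaf2, a chaperone related to the subunit Ndufa12 (chr13:108002715-108158623, minus strand), was at 3.41, 2.38 and 3.31 CPM against 4.83, 5.81 and 4.73. Every knockout library lay above every wild-type one for these 3 genes. The log2 fold changes were 0.95 ± 0.33, 0.78 ± 0.28 and 0.76 ± 0.28 (SE), with adjusted p-values of 0.208, 0.220 and 0.237 by edgeR (quasi-likelihood, Benjamini-Hochberg).

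Of the 2 genes outside the standard subunits, Ndufa4 is now assigned to complex IV (chr6:11900292-11907497, minus strand). It was at 29.0, 22.2 and 35.1 CPM in wild type and 43.2, 46.4 and 38.6 CPM in knockout, without overlap. The log2 fold change was 0.57 ± 0.18 (SE; adjusted p = 0.168, edgeR quasi-likelihood, Benjamini-Hochberg). Ndufa4l2, its hypoxia-responsive relative, had 0, 0 and 0 counts in wild type and 1, 1 and 0 in knockout and was not tested.

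Single libraries differed in how far their Nduf transcripts lay from each gene's mean over the 6 libraries. The median log2 deviation over the 45 genes was -0.32, -0.46 and -0.00 in wild-type libraries 1, 2 and 3 and 0.30, 0.43 and 0.15 in knockout libraries 1, 2 and 3. Wild-type library 3 was the highest of its group in 34 of 45 genes, and wild-type library 2 was the lowest of all 6 libraries in 26. Knockout library 2 was the highest of all 6 in 28 genes, and knockout library 3 was the lowest of its group in 29. Without wild-type library 3 the median log2 fold change of the Nduf genes was 0.75, and leaving out each of the others in turn gave 0.45 to 0.64. Paneth markers, summed, were at 939, 603 and 915 CPM in wild type and 2357, 949 and 1491 in knockout. Epithelial markers were at 1407, 1414 and 1768 CPM in wild type and 1612, 1986 and 1684 in knockout. Goblet markers were at 2244, 1440 and 4370 CPM in wild type and 1899, 1911 and 2020 in knockout. Tuft markers were at 65.9, 74.6 and 87.4 CPM in wild type and 34.6, 22.4 and 50.7 in knockout. Crypt stem cell markers summed to 935, 956 and 622 CPM in wild type and 1308, 652 and 1037 in knockout. The part of cell type make-up in the Nduf values was not tested.

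**Figure D3:**
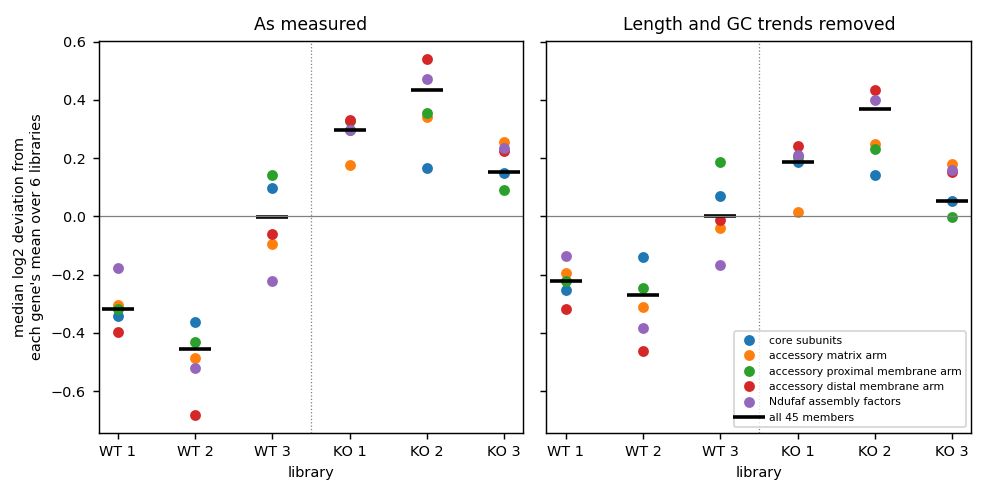
Median log2 deviation of the Nduf genes of each role (coloured points) and of all 45 (black bar) from each gene's own mean over the 6 libraries (WT, wild type; KO, Apln knockout), as measured and after length and GC trends were removed. As measured the bars lie at -0.32, -0.46 and -0.00 in wild type and 0.30, 0.43 and 0.15 in knockout.

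Nduf transcripts are short, and short transcripts were higher in the knockout libraries as a whole. The longest annotated transcript had a median of 1200 nucleotides for the 45 genes and 3010 for all genes, and fold change went with length at a Spearman's rho of -0.26 across all genes and -0.09 across the Nduf genes, given as a description, since genes share the libraries. All genes were split by length into 4 classes of equal size. In the shortest class, which held 33 of the 45, the median log2 fold change was 0.57 for the Nduf genes and 0.20 for all. In the second class, with 7, it was 0.52 against 0.05, and in the third, with 5, it was 0.46 against -0.05. After a smooth trend with length and GC content was removed from each library, the median of the Nduf genes was 0.33, against -0.03 over all genes. On this scale 41 of 45 lay above 0, where 46.6% of all genes did, and 20 of 45 were higher at an unadjusted p under 0.05, where 5.23% were. By role the corrected medians were 0.35 for core, 0.29 for matrix arm, 0.25 for proximal and 0.52 for distal accessory subunits and 0.46 for assembly factors. Ndufa9 was then at 0.64, Ndufb8 at 0.73, Ndufb11 at 0.61 and Ndufs1 at -0.33. The lowest adjusted p of any Nduf gene by edgeR (quasi-likelihood, Benjamini-Hochberg) was then 0.182.

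**Figure D4:**
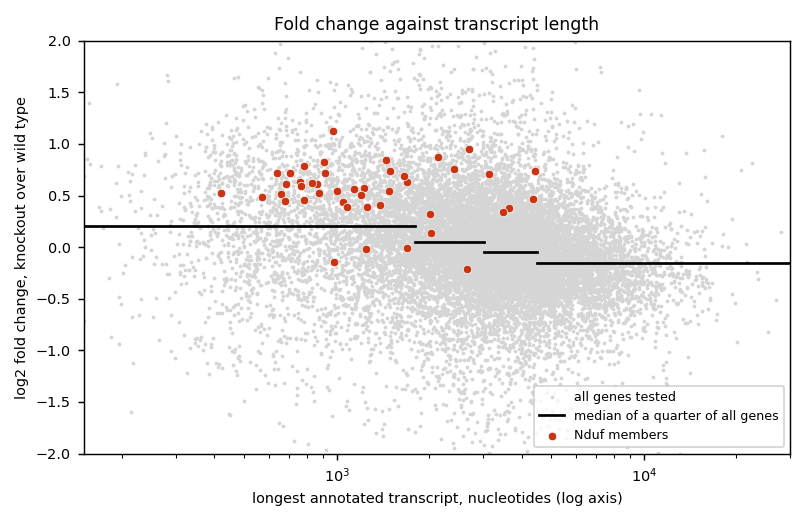
Log2 fold change against the length of the longest annotated transcript (log axis) for all tested genes (grey; values beyond 2 on either side are not drawn) and 44 of the 45 Nduf genes (red), with black lines for the median of each of 4 equal classes of all genes by length. The red points lie mostly above the lines, which go from 0.20 in the shortest to -0.15 in the longest class.

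Transcript levels of the 45 tested Nduf genes, assembly factors and Ndufa4 included, were far from equal. Per kilobase of exon, the wild-type mean ran from 0.673 CPM for Ndufs5 to 35.4 CPM for Ndufb9, a 52.6-fold range with a median of 6.65. Ndufb9 (35.4 ± 6.59) and Ndufa13 (29.9 ± 3.58) were the most abundant and differed by less than the SD of Ndufb9. Ndufc2, Ndufs8 and Ndufa4 were at 23.3, 21.2 and 20.8, which differed by less than the SD of Ndufa4 (4.65). Assembly factors were lower, with a median of 2.00 CPM per kilobase and a maximum of 4.13 for Ndufaf8, against a median of 7.68 for the core subunits. The order was largely kept in the knockout (Spearman's rho 0.980 over 45 genes, as a description). Ndufs7 moved from place 9 to place 16, Ndufs4 from 17 to 24 and Ndufc1 from 18 to 26. With the longest transcript as the length, Ndufs7 was at place 5 in wild type.

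**Figure D5:**
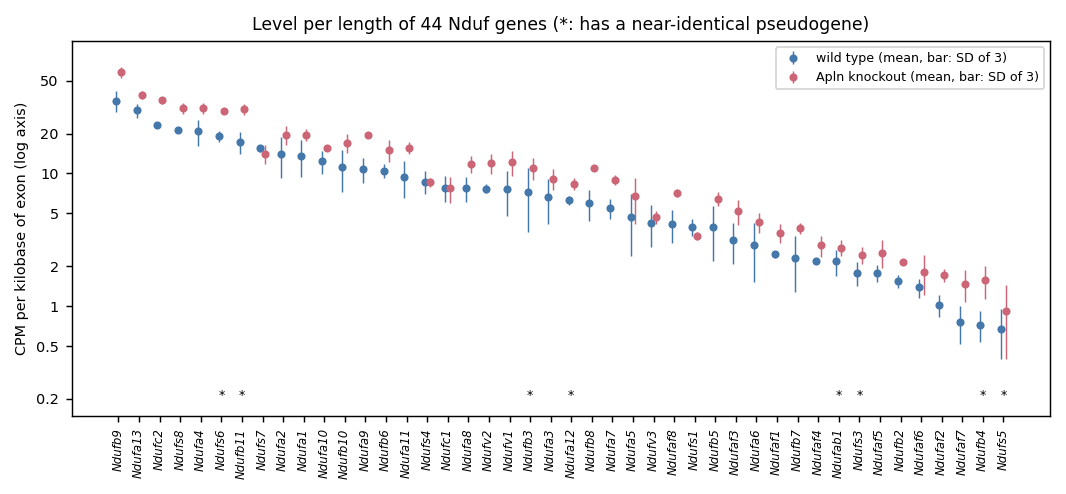
CPM per kilobase of exon (log axis) for 44 of the 45 tested Nduf genes, ordered by the wild-type mean, with bars for the SD of 3 libraries, and stars for the 8 genes with a near-identical pseudogene. Knockout means lie above wild-type means along most of the range, from 35.4 for Ndufb9 to 0.673 for Ndufs5 in wild type.

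Some low levels are uncertain because processed pseudogenes share the sequence. A search of annotated transcripts found near-identical copies, at 95% identity or more over at least 100 nucleotides, for 8 genes: Ndufa12, Ndufab1, Ndufb3, Ndufb4, Ndufb11, Ndufs3, Ndufs5 and Ndufs6. Their median level was 4.22 CPM per kilobase in wild type, against 7.57 for the 37 genes without a copy. The copy of Ndufs5, BC002163, matched it at 99.4% over 319 nucleotides and had 252 counts over the 6 libraries. The copy of Ndufs3, Gm12251, matched at 98.6% over 792 nucleotides and had 360 counts, with a log2 fold change of 0.07 against 0.44 for Ndufs3. The copy of Ndufa12, Gm15920, had 1372 counts and a log2 fold change of 0.15 against 0.41 for Ndufa12. The copy of Ndufb11, Gm6444, had 212 counts and a log2 fold change of 0.98, near that of Ndufb11. The handling of reads that fit both a gene and its copy is not stated, so the split of these counts is uncertain. Without these 8 genes, a selection made after the data were seen, the median log2 fold change was 0.54, as over all 45. Exons of Ndufa9, Ndufb5, Ndufb8, Ndufb9, Ndufb11, Ndufs1, Ndufs6, Ndufa11, Ndufaf2 and Ndufaf3 among others overlap exons of neighbouring genes. The strand setting of the counting is not stated either.

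The mitochondrially encoded subunits form the proton-pumping core. The table held 6 mt-Nd genes, of which 5 were tested, and all 5 lay above 0 with a median log2 fold change of 0.51, but none was without overlap between the groups. At an unadjusted p under 0.05 by edgeR 3 of 5 were higher and 0 lower, against 7.53% and 7.66% of all genes. The most abundant and the highest in fold change, mt-Nd1, was at 2457, 2176 and 1673 CPM in wild type and 3143, 4106 and 2244 in knockout, with a log2 fold change of 0.59 ± 0.22 (SE; adjusted p = 0.238, edgeR quasi-likelihood, Benjamini-Hochberg). The lowest, mt-Nd4, was at 1835, 1742 and 1383 CPM in wild type and 1857, 2687 and 1518 in knockout (0.29 ± 0.21, edgeR adjusted p = 0.561), and its sign turned with total-count scaling (-0.086). mt-Nd3 had 6, 7 and 6 counts in wild type and 3, 7 and 7 in knockout and was not tested. In CPM, summed mt-Nd transcripts exceeded summed Nduf transcripts 9.87-fold, 9.71-fold and 5.83-fold in wild type and 7.75-fold, 10.1-fold and 6.34-fold in knockout, and these ratios overlapped. After the length and GC correction the mt-Nd median was 0.15, and 4 of 5 lay above 0, where 46.6% of all genes did. On that scale 0 of 5 were higher or lower at an unadjusted p under 0.05 by edgeR. Of all 15122 genes 791 (5.23%) were higher and 981 lower.

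Assembly factors without an Nduf name were described beside these. Of 13 tested, 0 were at an unadjusted p under 0.05 in the edgeR test, where 7.53% of all genes were higher and 7.66% lower. Their median log2 fold change was 0.24, and -0.03 after the length and GC correction. Nubpl, which delivers iron-sulfur clusters to complex I, was at 0.833, 0.654 and 0.852 CPM in wild type and 1.74, 1.57 and 1.37 in knockout, without overlap (0.99 ± 0.48 SE, edgeR adjusted p = 0.361). Lyrm2, named for its LYR motif, was at 1.59, 0.861 and 0.788 CPM in wild type and 1.36, 2.54 and 2.22 in knockout (0.92 ± 0.48 SE, edgeR adjusted p = 0.392). Tmem186, a factor of membrane arm assembly, was at 2.78, 2.72 and 4.70 CPM in wild type and 3.14, 5.49 and 6.14 in knockout (0.53 ± 0.34 SE, edgeR adjusted p = 0.502). The groups overlapped for both. The log2 fold changes of 3 further membrane arm assembly factors, chosen after their values were seen, were -0.17 for Acad9, 0.03 for Ecsit and 0.42 for Timmdc1. Whether these differed from the Ndufaf genes was not tested.

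Complex II, which feeds ubiquinone from succinate, had a median of 0.26 over 8 genes, and of 0.18 after the length and GC correction. These 8 genes are subunits and assembly factors together, which were summarised apart for complex I. At an unadjusted p under 0.05 by edgeR 1 of 8 was higher and 0 lower, against 7.53% and 7.66% of all genes. The 1 higher gene was Sdhd, a membrane anchor subunit. It was at 61.7, 50.2 and 44.4 CPM in wild type and 80.7, 92.1 and 68.4 CPM in knockout. The groups did not overlap (0.63 ± 0.17 SE; adjusted p = 0.123, edgeR quasi-likelihood, Benjamini-Hochberg). The catalytic flavoprotein gene Sdha was at 105 ± 2.57 and 93.5 ± 7.96 CPM (SD, n = 3). Sdhaf2, which helps attach the flavin to Sdha, was at 6.86, 4.89 and 6.43 CPM in wild type and 8.86, 7.66 and 7.04 in knockout (0.37 ± 0.23 SE, edgeR adjusted p = 0.480), without overlap. Sdhaf1, an assembly factor of the iron-sulfur subunit, was at 2.54, 1.62 and 1.36 CPM in wild type and 4.03, 1.89 and 2.79 in knockout (0.66 ± 0.41 SE, edgeR adjusted p = 0.484), with overlap.

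Over 12 regulators of mitochondrial genes the median log2 fold change was -0.08. At an unadjusted p under 0.05 by edgeR 0 of 12 were higher and 1 lower, against 7.53% and 7.66% of all genes. After the length and GC correction the median was 0.04, above 0. Then 0 were higher or lower at that threshold, where 791 of 15122 genes (5.23%) were higher and 981 lower. The lower one without the correction was Pprc1, a coactivator of the PGC-1 family, at 21.0, 25.9 and 20.2 CPM in wild type and 14.9, 17.0 and 16.6 in knockout, without overlap (-0.47 ± 0.17 SE; adjusted p = 0.224, edgeR quasi-likelihood, Benjamini-Hochberg). Ppargc1b, another of that family, was at 11.5, 7.75 and 10.1 CPM in wild type and 4.92, 6.83 and 9.03 in knockout (-0.50 ± 0.26 SE, edgeR adjusted p = 0.391). Tfam, which packages mitochondrial DNA and promotes its transcription, was at 16.9, 12.4 and 14.4 CPM in wild type and 23.5, 19.2 and 14.6 in knockout (0.39 ± 0.21 SE, edgeR adjusted p = 0.405). Both overlapped between the groups.

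The 20 genes that make ubiquinone or supply NADH had a median of 0.17. At an unadjusted p under 0.05 by edgeR 3 of 20 were higher and 1 lower, against 7.53% and 7.66% of all genes. After the length and GC correction the median was 0.04. Then 2 were higher and 1 lower at that threshold, where 791 of 15122 genes (5.23%) were higher and 981 lower. Coq2, which joins the ring and tail of ubiquinone, was at 5.83, 5.48 and 4.32 CPM in wild type and 8.49, 8.07 and 9.07 in knockout. Coq7, a ring hydroxylase, was at 2.54, 3.06 and 3.22 CPM against 4.60, 5.12 and 4.77. Neither gene overlapped between the groups, with log2 fold changes of 0.71 ± 0.22 and 0.71 ± 0.27 (SE) and adjusted p-values of 0.164 and 0.244 by edgeR (quasi-likelihood, Benjamini-Hochberg). Dld, the dehydrogenase that passes electrons to NAD in the pyruvate and oxoglutarate complexes, was at 42.2, 44.8 and 44.0 CPM against 58.4, 71.2 and 45.03 (0.42 ± 0.17 SE, edgeR adjusted p = 0.279). The groups did not overlap, although knockout library 3 was close to wild type. The 1 lower gene was Pdhb, a subunit of pyruvate dehydrogenase, at 29.3 ± 0.613 and 23.0 ± 2.92 CPM (SD, n = 3), which is named here after its value was seen.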

How the data were processed

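Per the labels' protocols, RNA of sorted crypt cells went through Ovation Pico WTA V2 amplification before Nextera DNA Flex library preparation. The submitters' processing notes list STAR 2.6.1, HTSeq and mm10. The sources used here state neither annotation release nor strand setting. The authors deposited raw read counts per gene for 28564 identifiers in 6 libraries, with 0 columns without a sample. Symbols and spans (mm10) came from GENCODE, which named 28551 identifiers.

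Genes passing filterByExpr (count minimum 10) were fitted with edgeR 4.0.16 in R 4.3.3: TMM scaling, the quasi-likelihood test over 15122 genes and Benjamini-Hochberg adjustment, with an adjusted p under 0.05 as the threshold. The standard error is the log2 fold change divided by the square root of F. The median log2 deviations per library used log2 CPM with a prior count of 2. Levels of different genes are CPM per kilobase of the union of exons. Precision is set by depth: 3 counts are 0.0946 to 0.142 CPM. Copies were searched with blastn 2.17.0. The scripts were tested on simulated data.

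Libraries of a group differed by more than sampling noise. Members, lists and tests were chosen with earlier results of these data known. One gene is counted in the sums, counts and medians but is not reported here. Otherwise, named with values per library are the 3 tested genes of lowest p in each role, every tested Nduf gene below 0, the untested one, the extreme and most abundant mt-Nd genes, and the 3 of lowest p in each other list; other genes named were chosen after their values were seen. Alternatives were DESeq2 1.42.0, limma 3.58.1 (voom), other scalings and filters, a length and GC correction, the replicate block and leaving out each library.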

Additional observations from a re-analysis of the deposited data

How the results depend on the processing

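The direction of the Nduf genes' median held under every setting run, and the counts of calls did not. The table as a whole had 26 called genes (17 higher, 9 lower). It had 1 (0 higher, 1 lower) with DESeq2 size factors, upper-quartile scaling, the length and GC correction or without the 5 most abundant entries. Limma-voom called 56, a 1 CPM filter (3 libraries) 117, DESeq2's Wald test 551 and no filter 629. Leaving out each library gave 0 to 358. Of the Nduf genes, 0 were called in the main test and with limma-voom, where 17 and 43 of 15122 genes were called higher. The 1 CPM filter called 3 of 44, all higher, where 83 of 12544 genes were called higher. DESeq2 called 10, all higher, where 2.57% of genes were called higher. No filter called 11 of 46, all higher, where 328 of 28564 genes were. The number was 0 to 8 on leaving out each library. The 8 came without wild-type library 3, where 1.61% of genes were called higher. Leaving out each library gave 15 to 34 Nduf genes higher at an unadjusted p under 0.05, where 4.35% to 9.98% of all genes were (9.98% in the fit with 34), and a median of 0.45 to 0.75. The median was 0.33 with the length and GC correction. The level per kilobase had a median of 8.78 CPM with the longest transcript as the length.

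Chosen after the data were seen, protein-coding nuclear genes alone gave 64 called genes of 12047 (38 higher, 26 lower). Of the 45 Nduf genes 1 was called, Ndufa9, which was higher. Total-count scaling gave 1349 called genes (18 higher, 1331 lower) and an Nduf median of 0.17. At an unadjusted p under 0.05 by edgeR 2 Nduf genes were higher and 2 lower, where 1.2% and 27.0% of all genes were. Total-count scaling also turned Sdhaf2 to -0.0016 and mt-Nd4 to -0.086.

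With the replicate number as a block 173 of 15122 genes were called (118 higher, 55 lower). Of the 45 Nduf genes 2 were called, both higher (Ndufa9 and Ndufb8). The numbers are those of the sample titles, and the knockout column names differ from them in part. Same-number correlations of deviations from the group means were 0.04, 0.06 and 0.01, and 5 of 6 libraries correlated best with their own number. Correlations this small, from 3 libraries per group, cannot decide whether the numbers pair the samples.

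Values near 0 changed sign: mt-Nd4 was -0.044 with the length and GC correction, and Ndufs4 was 0.016 with limma-voom, 0.0073 with the block and 0.0091 with upper-quartile scaling. On leaving out each library Ndufs4 ran from -0.15 to 0.084, above 0 on omitting wild-type 1, wild-type 2 or knockout 1. Ndufc1 ran from -0.21 to 0.092, above 0 on omitting wild-type 2, wild-type 3, knockout 1 or knockout 3. The cause was not tested for any of these changes, apart from the numbers of genes or samples that a setting itself removes. Depth limits the genes with few counts, such as Ndufs5, Ndufb4 and Ndufaf6.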
